A study of Mus musculus with 12 samples.

Results

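Guanylate-binding proteins (GBPs) and immunity-related GTPases (IRGs) are families of cytosolic GTPases that interferon, above all interferon-γ, induces in many mouse cell types. They assemble on the membranes of vacuoles that hold pathogens and on bacteria in the cytosol, where they help to break these membranes open and to start inflammasome signalling. The GBPs act with effector IRGs on the target membrane, while Irgm1, Irgm2 and Igtp (also called Irgm3) are regulatory IRGs that sit on the cell's own membranes and hold the effectors inactive there. In the islet, interferon-γ from infiltrating immune cells is a well-known inducer of such genes. The 10 genes described are Gbp2, Gbp3, Gbp4, Gbp5, Gbp6, Gbp7, Gbp9, Igtp, Irgm1 and Irgm2, taken by symbol from a table of 52962 gene identifiers.

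RNA was sequenced from β-cells and non-β-cells of islets from female NOD mice, a strain with spontaneous autoimmune diabetes, at 4 and 8 weeks of age. All groups share the NOD genotype, no group of another strain was analysed here, and no treatment is given in the labels. Both fractions were sorted by autofluorescence after overnight culture of the islets, with CD45-positive cells removed per the study's methods. The 12 samples make 4 groups of 3, described in the study as pools of 3 mice. The labels do not state the pooling, so p-values measure the spread between these samples only. The total of estimated counts ranged from 13755106 to 27040652 per library.

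The sort set the fractions apart but did not purify them. Ins2, the main insulin gene, stood at 33000 ± 11100 and 64900 ± 2210 CPM (counts scaled to a common library total, with TMM factors; SD, n = 3) in the 4- and 8-week β-cells against 568 ± 139 and 1590 ± 159 in the non-β-cells. Gcg, the glucagon gene, stood at 6900 ± 1900 and 1990 ± 526 CPM in the β-cells and at 109000 ± 7340 and 123000 ± 11000 CPM in the non-β-cells. Ptprc, which encodes CD45, did not exceed 0.789 CPM in any library, and 18 of 20 leukocyte marker genes failed the filter on low counts. Cd68 and Cd79a, the 2 that passed it, were higher in β-cells than in the other fraction at both ages. The 10 endothelial markers summed to 7.06 to 15.7 and 13.8 to 17.5 CPM in the 4- and 8-week β-cells, and to 47.2 to 87.2 and 342 to 901 CPM in the 4- and 8-week non-β-cells, with none of the 10 at 0 throughout a group. The 8 mesenchymal markers summed to 4.28 to 15.4 and 26.3 to 53.8 CPM in β-cells, and to 105 to 304 and 683 to 1070 CPM in the non-β fraction, again with none at 0 throughout a group. In bulk samples such as these, a difference in the number of cells of a type and a difference in RNA per cell cannot be told apart.

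The genes lie on 3 chromosomes of the mouse genome (build GRCm38), all annotated as protein-coding. Gbp5 (chr3:142493978-142522344), Gbp7 (chr3:142530342-142550149), Gbp3 (chr3:142560026-142573209) and Gbp2 (chr3:142620602-142638008) follow one another on the plus strand, where Gbp7 overlaps Gm43802. Gbp9 (chr5:105077630-105139539) and Gbp4 (chr5:105115767-105139586) overlap each other and Gbp8 on the minus strand, and Gbp6 (chr5:105270702-105293698) overlaps Gm43302 on the same strand. Irgm1 (chr11:48861968-48871683, minus strand) stands apart on chromosome 11 from Igtp (chr11:58199556-58207591) and Irgm2 (chr11:58199618-58222782), which overlap on the plus strand. Reads were assigned to transcripts in the study with kallisto, and of the 31-base words in its transcripts Gbp6 shared 74.2% with another gene, mostly Gm43302 and Gbp10. This share was 18.3% for Gbp9, 15.9% for Igtp, 14.7% for Gbp7, 14.3% for Gbp4 and 10.7% for Irgm2, and from 2.2% to 5.6% for Gbp2, Gbp3, Gbp5 and Irgm1. How counts fall between such neighbours is therefore uncertain.

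RefSeq promoter sequences (GRCm38.p6, 250 bases before to 50 after a start) were at hand for 7 of the 10 genes, and each of the 7 had a promoter that held the letters GAAANNGAAA on either strand, the core of the interferon-stimulated response element. These letters stood in 3.44% of 32851 RefSeq promoters of the same length. Gbp3 has 2 annotated starts, and the second promoter held none. The stretches around the match are shown because these genes rose together with age. The match is in capitals (2 overlapping matches for Gbp3 and Irgm1), 5′ to 3′ on the strand of the gene.
Gbp2, chr3:142620584-142620633, plus strand: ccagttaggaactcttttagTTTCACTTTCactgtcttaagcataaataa
Gbp3, chr3:142559979-142560034, plus strand: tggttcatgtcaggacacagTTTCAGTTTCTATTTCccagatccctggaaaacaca
Gbp5, chr3:142496749-142496798, plus strand: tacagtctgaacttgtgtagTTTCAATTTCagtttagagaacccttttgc
Gbp7, chr3:142530263-142530312, plus strand: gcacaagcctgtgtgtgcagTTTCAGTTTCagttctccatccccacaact
Igtp, chr11:58199502-58199551, plus strand: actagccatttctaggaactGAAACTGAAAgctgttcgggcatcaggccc
Irgm1, chr11:48871415-48871470, minus strand: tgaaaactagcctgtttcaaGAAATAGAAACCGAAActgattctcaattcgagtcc
Irgm2, chr11:58214893-58214942, plus strand: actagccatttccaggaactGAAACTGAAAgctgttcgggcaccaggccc

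The match began 165 bases before the start in Gbp5 and between 24 and 64 bases before it in the other 6 genes. In the GBPs the letters ran on the opposite strand to the gene and in the IRGs on the same strand. Igtp and Irgm2 carried nearly the same stretch, and their promoters were 90.4% identical over 270 aligned bases. The letters TTCNNNGAA, the core of the interferon-γ activated site, stood in the promoters of Gbp5, Gbp7, Igtp and Irgm2 and in 8.30% of all RefSeq promoters, without overlapping the first motif in these 4. A match of letters is a description of the sequence and not a measured binding site.

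Gbp2, Gbp3, Gbp4, Gbp5 and Gbp9 were low at 4 weeks, at no more than 1.96 CPM in any library, and were readily measured at 8 weeks in both fractions. Gbp6, Gbp7, Igtp, Irgm1 and Irgm2 were already expressed at 4 weeks and rose by less. All 10 genes passed the filter (CPM above 1 in at least 3 samples), but Gbp3, Gbp4 and Gbp5 passed it only through the 8-week libraries, so a difference with age was built into their selection. All 10 genes were upregulated with age in β-cells, where 8.59% of 15598 tested genes were higher at 8 weeks, and all 10 in the non-β fraction, where 11.6% were (limma-voom, adjusted p under 0.05). No 8-week library overlapped a 4-week library of the same fraction for any of the 10, a pattern that 20.7% of tested genes showed in β-cells and 19.0% in the non-β fraction. The median log2 difference of the 10 was 2.60 in β-cells and 3.52 in the non-β fraction, against 0.02 and 0.01 over all tested genes. Without the first 8-week non-β library, whose endothelial and acinar markers stood above those of its group, 8 of the 10 were called in that fraction (not Gbp7 and Irgm1). That fit called 1997 of all tested genes, against 2561 in the main fit. The loss was not particular to this library: Gbp7 and Irgm1 each lost the call on leaving out any of 4 of the 6 non-β libraries.

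**Figure D1:**
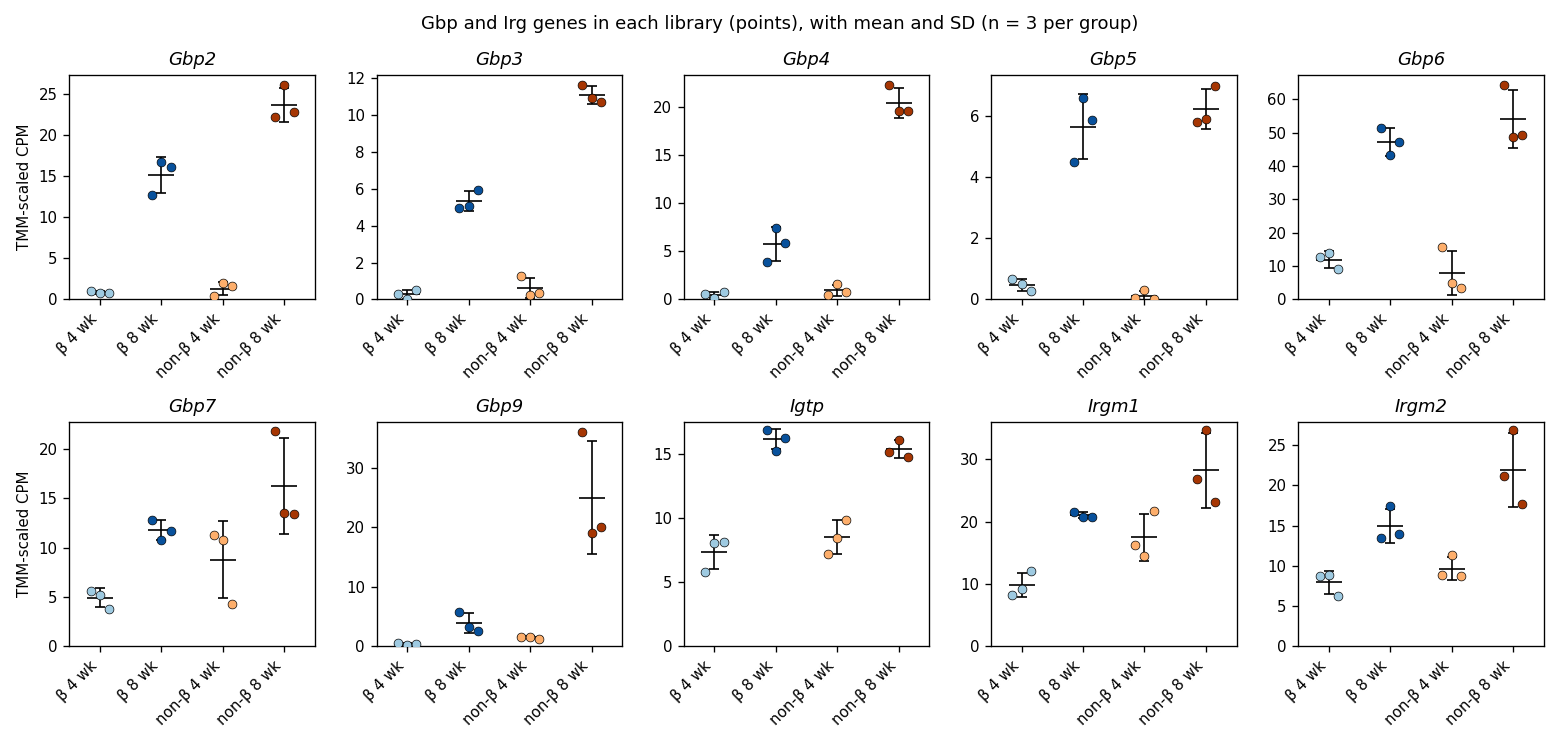
Points are TMM-scaled CPM of each of the 10 genes in each of the 12 libraries, and bars give the mean ± SD of the 3 libraries in a group; each panel has its own vertical axis from 0. In every panel the 8-week libraries of a fraction lie above its 4-week libraries, and the ratio between the 8-week fractions is widest for Gbp9 and Gbp4.

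Gbp2, which helps to lyse pathogen vacuoles, had 1.02, 0.753 and 0.780 CPM in the 3 β-cell libraries at 4 weeks and 12.7, 16.8 and 16.1 CPM at 8 weeks. The non-β libraries had 0.421, 1.96 and 1.63 CPM at 4 weeks and 22.3, 26.1 and 22.8 CPM at 8 weeks. The ages did not overlap in either fraction, and the 4-week values came from 11 to 40 estimated counts per library. The log2 difference was 4.15 ± 0.50 (SE) in β-cells (adjusted p = 0.000127) and 4.49 ± 0.45 in the non-β fraction (adjusted p = 1.87e-05), both by limma-voom.

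Gbp3 was at 0.305, 0.00 and 0.505 CPM in 4-week β-cells and at 4.95, 5.09 and 5.94 CPM in 8-week β-cells. The non-β-cells gave 1.26, 0.245 and 0.345 CPM at 4 weeks and 11.6, 10.9 and 10.7 CPM at 8 weeks. One 4-week β-cell library thus held no count of Gbp3, and the 8-week libraries of each fraction lay close together. Its log2 difference was 5.27 ± 0.98 in β-cells (limma-voom, adjusted p = 0.00267) and 4.38 ± 0.63 in the non-β fraction (adjusted p = 0.000340).

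Gbp5, which promotes inflammasome assembly, had 0.662, 0.515 and 0.275 CPM in 4-week β-cells and 4.49, 6.60 and 5.86 CPM in 8-week ones. Its non-β levels were 0.0383, 0.294 and 0.00 CPM at 4 weeks and 5.80, 5.90 and 6.99 CPM at 8 weeks. In the 4-week non-β-cells the 3 libraries together held 7.09 estimated counts. The log2 difference was 3.57 ± 0.54 in β-cells (limma-voom, adjusted p = 0.000706). Among non-β-cells it was 6.37 ± 1.00 (adjusted p = 0.000635), a fitted value against a group with so few counts that its size depends on the model.

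Gbp4 rose from 0.560, 0.119 and 0.734 CPM to 3.89, 7.39 and 5.86 CPM in β-cells, with a log2 difference of 3.92 ± 0.73 (limma-voom, adjusted p = 0.00278). In the non-β fraction it rose from 0.497, 1.57 and 0.789 CPM to 22.2, 19.5 and 19.6 CPM, with a log2 difference of 4.62 ± 0.52 (adjusted p = 5.04e-05). The 8-week non-β-cells lay far above the 8-week β-cells, while the 4-week libraries of both fractions overlapped. Summed with the overlapping Gbp8 and Gbp9, the log2 difference was lower, at 2.91 in β-cells and 2.84 in the non-β fraction.

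Gbp9 had the least firm call of this low group in β-cells. It had 0.560, 0.238 and 0.413 CPM in 4-week β-cells and 5.83, 3.28 and 2.61 CPM in 8-week β-cells, a log2 difference of 3.20 ± 0.94 (limma-voom, adjusted p = 0.0323). That call was lost when any β-cell library other than 8-week library 3 was left out, with the adjusted p reaching 0.109. Across the non-β libraries Gbp9 went from 1.61, 1.52 and 1.28 CPM to 36.0, 19.0 and 20.0 CPM, a log2 difference of 4.05 ± 0.53 (adjusted p = 0.000159). The non-β library with 36.0 CPM, the first at 8 weeks, also had the highest summed endothelial markers of its group (901 against 342 and 505 CPM) and the highest summed acinar markers (666 against 216 and 185 CPM), and their part in the result was not tested. Without that library the log2 difference of Gbp9 in the non-β fraction was 3.71 (adjusted p = 4.88e-05). The sum of Gbp9 with Gbp4 and Gbp8, whose positions overlap its own, had a log2 difference of 2.91 in β-cells (limma-voom, adjusted p = 0.000367). In the non-β fraction it was 2.84 (adjusted p = 3.77e-06), an alternative chosen after the data were seen. The sum is not a call for Gbp9, which in β-cells held 0.403 of its 2.69 CPM at 4 weeks and 3.90 of 18.1 CPM at 8 weeks. In the non-β fraction Gbp9 held 1.47 of 10.0 and 25.0 of 71.8 CPM.

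**Figure D2:**
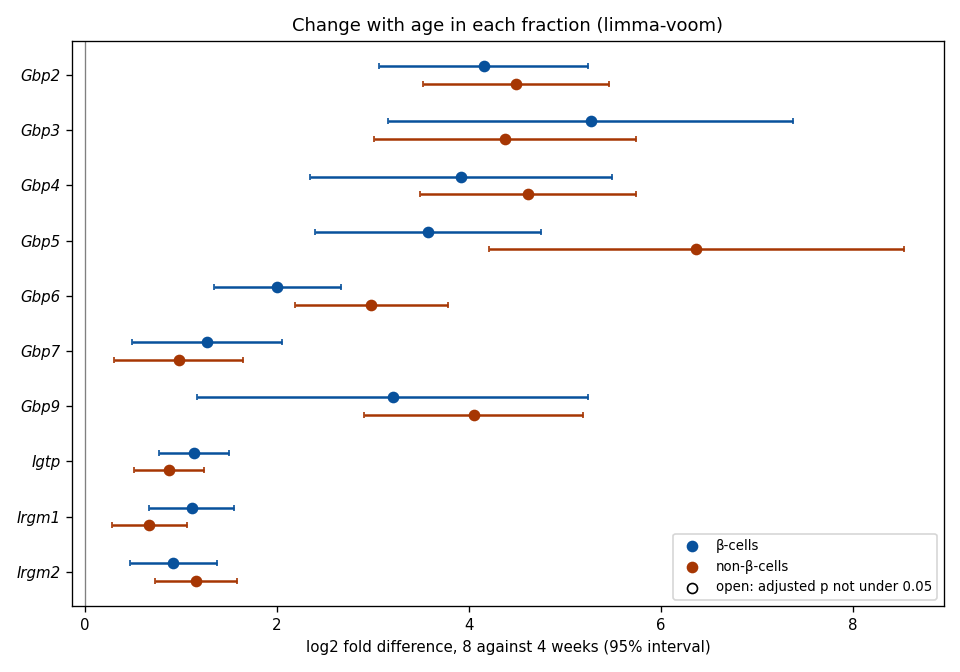
Points are log2 differences between 8 and 4 weeks from limma-voom for the 10 genes in β-cells (blue) and non-β-cells (brown), with 95% intervals; all points are filled because all passed an adjusted p of 0.05. Gbp2, Gbp3, Gbp4, Gbp5 and Gbp9 lie between 3.20 and 6.37, Gbp6 at 2.00 and 2.98, and Gbp7 and the 3 IRGs between 0.67 and 1.27.

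Gbp6, an antimicrobial GBP, varied widely among the 4-week non-β libraries. Its β-cell libraries had 12.7, 13.9 and 8.99 CPM at 4 weeks and 51.4, 43.2 and 47.1 CPM at 8 weeks, and the log2 difference was 2.00 ± 0.31 (limma-voom, adjusted p = 0.000732). The non-β libraries had 15.6, 4.89 and 3.35 CPM at 4 weeks and 64.2, 48.8 and 49.4 CPM at 8 weeks, and the log2 difference was 2.98 ± 0.37 (adjusted p = 0.000108). In 4-week non-β libraries 2 and 3, where Gbp6 was low, the overlapping gene Gm43302 had 7.09 and 7.20 CPM, against 0.00 CPM in the first. The sum of Gbp6, Gbp10 and Gm43302 varied less in that group, at 15.6, 12.3 and 10.6 CPM. Fitted as that sum, the log2 difference was 2.19 in β-cells and 2.28 in the non-β fraction.

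Gbp7, which acts with the other GBPs in antibacterial defence, had 5.65, 5.23 and 3.81 CPM in 4-week β-cells and 12.8, 10.8 and 11.7 CPM in 8-week β-cells. It had 11.3, 10.8 and 4.29 CPM in 4-week non-β-cells and 21.9, 13.5 and 13.4 CPM in 8-week non-β-cells. The ages were well separated in β-cells and nearly met in the non-β fraction. The log2 difference was 1.27 ± 0.36 in β-cells (limma-voom, adjusted p = 0.0284) and 0.98 ± 0.31 in the non-β fraction (adjusted p = 0.0487). Neither call was firm. The β-cell call was lost on leaving out any 1 of the 6 β-cell libraries, with an adjusted p of up to 0.0832, and the non-β call was lost in 14 of 23 alternatives, most of all without the first 8-week non-β library (adjusted p = 0.220).

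Igtp, a regulatory IRG, rose from 5.80, 8.05 and 8.17 CPM to 16.9, 15.3 and 16.3 CPM in β-cells. The non-β libraries went from 7.19, 8.46 and 9.86 CPM to 15.2, 16.1 and 14.8 CPM. The levels of both fractions were much alike at each age, and the log2 difference was 1.14 ± 0.17 in β-cells (limma-voom, adjusted p = 0.000584) and 0.87 ± 0.17 in the non-β fraction (adjusted p = 0.00284).

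Irgm2 had 8.75, 8.80 and 6.28 CPM in 4-week β-cells and 13.5, 17.4 and 14.0 CPM in 8-week β-cells, a log2 difference of 0.92 ± 0.21 (limma-voom, adjusted p = 0.00933). It had 8.91, 11.3 and 8.78 CPM in 4-week non-β-cells and 21.2, 26.9 and 17.7 CPM in 8-week non-β-cells, a log2 difference of 1.15 ± 0.20 (adjusted p = 0.00120). The fitted folds were 1.90 and 2.22, and both calls held in all 23 alternatives.

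Irgm1, a regulator of autophagy and mitochondria as well as of the effector IRGs, had 8.24, 9.16 and 12.0 CPM in 4-week β-cells and 21.6, 20.7 and 20.8 CPM in 8-week β-cells. It had 16.3, 14.5 and 21.7 CPM in 4-week non-β-cells and 26.8, 34.7 and 23.1 CPM in 8-week non-β-cells. The log2 difference was 1.11 ± 0.21 in β-cells (limma-voom, adjusted p = 0.00256). Among non-β-cells it was 0.67 ± 0.18 (adjusted p = 0.0213), a call that was lost in 5 of 23 alternatives, 4 of which left out 1 non-β library, with an adjusted p of up to 0.0948.

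Levels of different genes can be compared only per length, for which CPM was divided by the longest annotated coding transcript of each gene in kb. The order of the genes depends on that choice. For Gbp6 and Irgm1 this transcript has 2604 and 2259 bases, while all annotated exons merged have 5954 and 5810. The Gbp6 level is also uncertain because 74.2% of its 31-base words are shared with another gene. On that scale Gbp6, Irgm1 and Igtp led in β-cells at both ages, with 4.56 ± 0.98, 4.34 ± 0.87 and 3.63 ± 0.66 CPM per kb at 4 weeks and 18.1 ± 1.59, 9.31 ± 0.22 and 8.00 ± 0.40 CPM per kb at 8 weeks. At 4 weeks these 3 did not differ beyond their spread. In 4-week non-β-cells Irgm1 led with 7.75 ± 1.67 CPM per kb, and in 8-week non-β-cells Gbp6 led with 20.8 ± 3.36, followed by Irgm1 with 12.5 ± 2.64 and Gbp2 with 9.44 ± 0.83 CPM per kb. Gbp2 was sixth of 10 in both 4-week groups and rose to rank 4 in the 8-week β-cells and rank 3 in the 8-week non-β-cells.

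The make-up of the group shifted from IRGs to GBPs. The 3 IRGs made up 56.7% to 69.1% of the summed CPM per kb of the 10 genes in 4-week β-cells and 39.4% to 40.7% in 8-week β-cells. In the non-β fraction their share went from between 59.2% and 83.8% to between 30.9% and 40.2%. The highest 4-week non-β shares, 71.6% and 83.8%, were those of libraries 2 and 3. There Gbp6 had 4.89 and 3.35 CPM and the overlapping Gm43302, outside the 10 genes, had 7.09 and 7.20 CPM. How counts fell between Gbp6 and Gm43302 therefore enters these shares. Gbp2, Gbp3, Gbp4, Gbp5 and Gbp9 together went from 3.16% to 6.21% at 4 weeks to 19.4% to 24.6% at 8 weeks in β-cells, and from 5.02% to 8.61% to 32.4% to 35.6% in the non-β fraction. In neither fraction did the libraries of both ages overlap in these shares, which are given without a test and rest on the same transcript lengths. The sum itself stood at 16.4 ± 0.78 and 53.8 ± 0.52 CPM per kb in 4- and 8-week β-cells and at 20.7 ± 1.63 and 75.8 ± 7.10 in the non-β fraction.

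**Figure D3:**
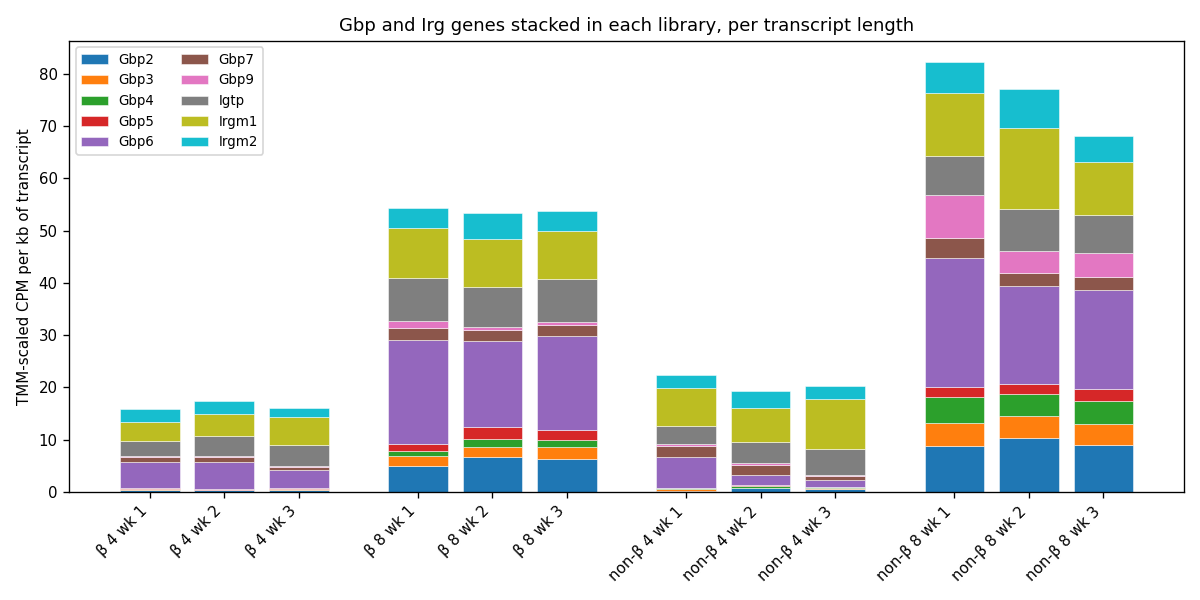
Each bar is 1 library and stacks the TMM-scaled CPM per kb of transcript of the 10 genes, without an error bar because each bar is a single library. The bars reach 15.9 to 22.4 at 4 weeks and 53.3 to 82.2 at 8 weeks, and the segment of Gbp6 is the tallest in every 8-week bar.

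Between the fractions, 4-week β- and non-β-cells differed in 1 of the 10 genes, with Irgm1 lower in β-cells (log2 difference −0.82 ± 0.21, limma-voom, adjusted p = 0.00618). None was called higher. Over all tested genes 23.7% were lower and 24.9% higher in 4-week β-cells. Irgm1 and Gbp9 were the genes whose libraries did not overlap, both lower in β-cells, as were 26.7% of tested genes. The Gbp5 difference was the widest in the other direction, at 2.66 ± 1.12 (adjusted p = 0.0647), with a 95% interval from 0.24 to 5.07. The count at 4 weeks depended on the processing. The edgeR and DESeq2 tests each called 4 of the 10 (Gbp5 higher and Gbp7, Gbp9 and Irgm1 lower in β-cells). A fit with the replicate block called 3 (Gbp7, Gbp9 and Irgm1), and Irgm1 was called in all 23 alternatives. Over all tested genes edgeR, DESeq2 and the block called 7619, 8106 and 9005 in either direction, against 7570 in the main fit.

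At 8 weeks 5 of the 10 genes were lower in β-cells than in the other fraction and none was called higher, against 25.6% lower and 23.6% higher over all tested genes. Gbp9 had the widest difference, with 2.61 to 5.83 CPM in β-cells and 19.0 to 36.0 CPM in the non-β fraction (log2 difference −2.77 ± 0.34, limma-voom, adjusted p = 2.06e-05). Gbp4 followed at −1.86 ± 0.23 (adjusted p = 2.58e-05), Gbp3 at −1.06 ± 0.25 (adjusted p = 0.00296), Gbp2 at −0.63 ± 0.17 (adjusted p = 0.00881) and Irgm2 at −0.51 ± 0.18 (adjusted p = 0.0291). The calls of Gbp9 and Gbp4 held in all 23 alternatives, those of Gbp2 and Gbp3 were lost with edgeR and with DESeq2, and that of Irgm2 in 6 of 23. A fit with the replicate block called 7, adding Gbp7 (limma-voom, adjusted p = 0.0280) and Irgm1 (adjusted p = 0.0181). Over all tested genes that block called 8945 in either direction, against 7679 in the main fit. Libraries of both fractions did not overlap for 7 of the 10 genes, where Gbp7 and Irgm1 joined the 5, a pattern shown by 32.4% of tested genes.

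Gbp5, Gbp6 and Igtp had 95% intervals of the β against non-β difference at 8 weeks of −0.63 to 0.35, −0.73 to 0.33 and −0.24 to 0.39 on the log2 scale. These intervals limit a difference at that age to under 1 log2 unit in either direction. Beside these comparisons stand the markers of other cells: all 10 endothelial and all 8 mesenchymal markers were lower in 8-week β-cells than in the other fraction, with median log2 differences of −7.34 and −4.57. Their part in the fraction differences of the GBPs was not tested.

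**Figure D4:**
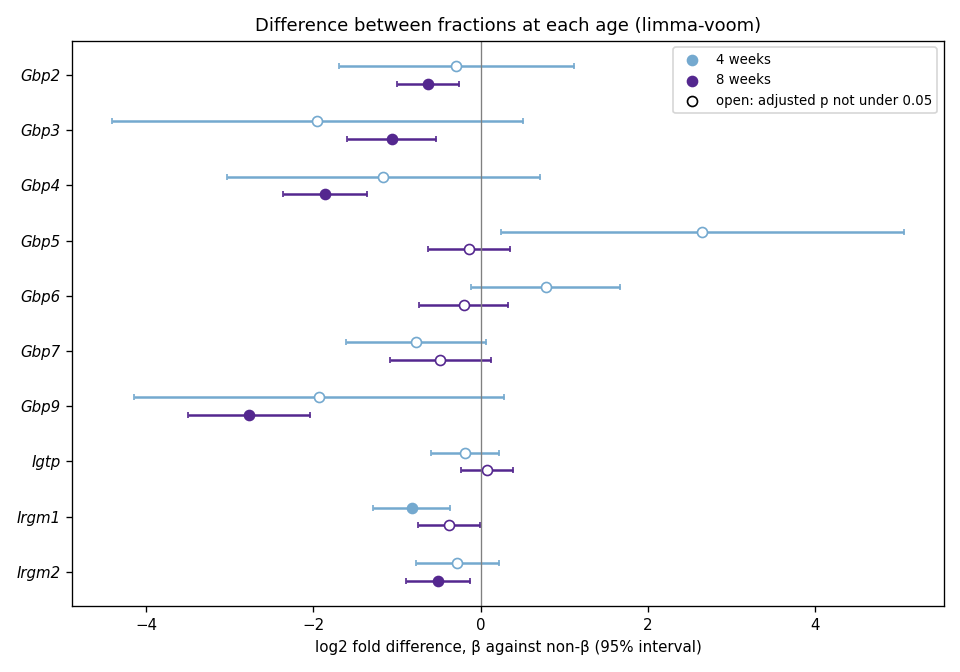
Points are log2 differences of β- against non-β-cells from limma-voom at 4 weeks (light blue) and 8 weeks (purple), with 95% intervals; filled points passed an adjusted p of 0.05. At 8 weeks Gbp9 (−2.77) and Gbp4 (−1.86) lie farthest to the left, and Gbp5, Gbp6, Gbp7 and Igtp have intervals that span 0.

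Whether the age change itself differed between the fractions was tested as an interaction, with the log2 change of the non-β fraction subtracted from that of the β-cells. None of the 10 genes was called (limma-voom), while 3.33% of tested genes were called with a change more positive in the non-β fraction. The medians of the 10 and of all tested genes were −0.28 and 0.00. Gbp5 had an interaction of −2.80 ± 1.14 (limma-voom, adjusted p = 0.199) and was the 1 gene of the 10 with an unadjusted p under 0.05. DESeq2 called it, while edgeR called none of the 10. Its 4-week levels in the non-β fraction were those of 7.09 counts. The intervals were wide for the genes with low 4-week counts, for instance −2.64 to 1.24 for Gbp4 and −3.17 to 1.49 for Gbp9, so that a like response of the fractions was not shown either. They were narrower for Igtp (−0.25 to 0.78) and Irgm1 (−0.15 to 1.03).

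Markers of other cells also moved with age. In the non-β fraction 10 of 10 endothelial and 8 of 8 mesenchymal markers rose, with median log2 differences of 3.19 and 2.50, as did 3 of 6 acinar markers. Cd68, a macrophage marker that was higher in the β-cells, rose in both fractions, by 0.51 ± 0.12 in β-cells (limma-voom, adjusted p = 0.0136) and by 0.81 ± 0.19 in the non-β fraction (adjusted p = 0.0106). The leukocyte list summed to 52.3 to 53.5 and 70.5 to 78.2 CPM in 4- and 8-week β-cells and to 8.81 to 13.6 and 16.2 to 21.1 CPM in the others. Most of these sums was Cd68, with means of 48.8 of 52.8 and 69.6 of 74.7 CPM in 4- and 8-week β-cells. In the non-β fraction its means were 9.15 of 11.5 and 16.5 of 19.4 CPM. In β-cells 0 of 10 endothelial markers and 1 of 8 mesenchymal markers were called, and 5 of 6 acinar markers rose, with summed levels of 83.0 to 165 CPM at 4 weeks and 387 to 821 CPM at 8 weeks. All 5 α-cell markers fell in β-cells (median log2 difference −1.25) and 5 of 8 β-cell markers rose there, while 3 of 5 duct markers rose in the non-β fraction (median 2.00). The part of these cells in the rise of the 10 genes was not tested. In the 8-week β-cells the 10 genes summed to 146 to 148 CPM. Marker sums there were 13.8 to 17.5 CPM (endothelial), 26.3 to 53.8 (mesenchymal), 70.5 to 78.2 (leukocyte), 387 to 821 (acinar), 764 to 833 (duct) and 1520 to 2570 (α-cell). Sums over different genes do not give numbers of cells.

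Of 28 other genes listed for the family, 21 were in the table and 9 passed the filter. Of these 9, 4 rose in β-cells (Gbp8, Gbp10, Iigp1 and Tgtp1), against 8.59% of all tested genes. In the non-β fraction 6 rose (those 4, Ifi47 and 9930111J21Rik2), against 11.6% of all tested genes, and none fell in either. Of these 6, all but Gbp8 passed the filter only through the 8-week libraries, so that a rise was built into their selection. Tgtp1, an effector IRG also known as Irgb6, went from 0.204, 0.00 and 0.00 CPM to 9.20, 9.72 and 6.74 CPM in β-cells (log2 difference 7.49 ± 1.53, limma-voom, adjusted p = 0.00503). Among non-β-cells it went from 0.612, 1.13 and 0.0493 CPM to 26.7, 18.2 and 24.5 CPM (log2 difference 5.90 ± 0.82, adjusted p = 0.000265). Tgtp1 and its near-identical neighbour Tgtp2 cannot be separated with confidence, and their sum rose from between 0.00 and 0.204 to between 6.74 and 9.72 CPM in β-cells and from between 0.612 and 1.63 to between 25.2 and 28.6 CPM in the non-β fraction.

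Iigp1 (Irga6), the best-studied effector IRG, had no count in the 4-week β-cells and 2.31, 1.24 and 1.08 CPM in the 8-week ones. Against a floor of 3 counts over the group, that is at least 32.4-fold higher. Non-β-cells had 0.306, 0.00 and 0.00 CPM at 4 weeks and 4.16, 4.03 and 4.06 CPM at 8 weeks (log2 difference 6.07 ± 1.04, limma-voom, adjusted p = 0.00125). Gbp8 rose by 2.34 ± 0.49 on the log2 scale in β-cells (adjusted p = 0.00585) and by 1.81 ± 0.26 in the non-β fraction (adjusted p = 0.000362). Gbp10 had a log2 difference of 5.73 ± 1.47 (adjusted p = 0.0175) and 6.46 ± 1.59 (adjusted p = 0.0131), but 89.8% of its 31-base words are shared with other genes and both calls were lost on leaving out 1 library (adjusted p of up to 0.0656 and 0.0620).

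Ifi47 (Irgd) was called in the non-β fraction, at 4.55 ± 1.08 on the log2 scale (limma-voom, adjusted p = 0.0104), and had 0.522 to 1.62 CPM in 8-week β-cells, where its difference of 4.85 ± 1.61 was not called (adjusted p = 0.0543). 9930111J21Rik2 was called in the non-β fraction at 2.91 ± 0.75 (adjusted p = 0.0164, and up to 0.0543 on leaving out 1 library) and in β-cells had a difference of 2.48 ± 1.15 (adjusted p = 0.164). Gbp11 had 1.60 to 2.50 CPM in 8-week β-cells and was not called in either fraction (adjusted p = 0.0664 and 0.0962). Tgtp2 on its own was not called either (adjusted p = 0.889 and 0.274). Irgq, an IRG-like gene, had 34.3 to 54.6 CPM in β-cells and 56.3 to 81.4 CPM in the non-β fraction and gave log2 differences of 0.29 ± 0.16 and −0.02 ± 0.16, neither called (adjusted p = 0.240 and 0.952).

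Of the 12 family genes below the filter, 11 had a count in some library. Gbp2b, the neighbour of Gbp2 also called Gbp1, had no count at 4 weeks in either fraction and 0.433, 1.27 and 0.411 CPM in 8-week non-β-cells, at least 13.8-fold higher against the same floor. Gm5431, F830016B08Rik and Gm4951 were also without a count in 4-week non-β-cells and had 3.55 to 21.1, 2.31 to 10.6 and 3.03 to 4.43 estimated counts per 8-week library. 9930111J21Rik1, which shares 85.6% of its 31-base words with 9930111J21Rik2, had none in the 4-week libraries and 1.21, 1.12 and 0.00 CPM in the 8-week ones, so the ages overlapped. Gm1966 had too few counts for a fold. Gvin1 had 103 estimated counts in the first 8-week non-β library and 12.2 and 11.0 in the others of that group, Gm12250, Gm4841, Gm12185 and Gm4070 had scattered counts, and Irgc1 had none in any library.

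**Figure D5:**
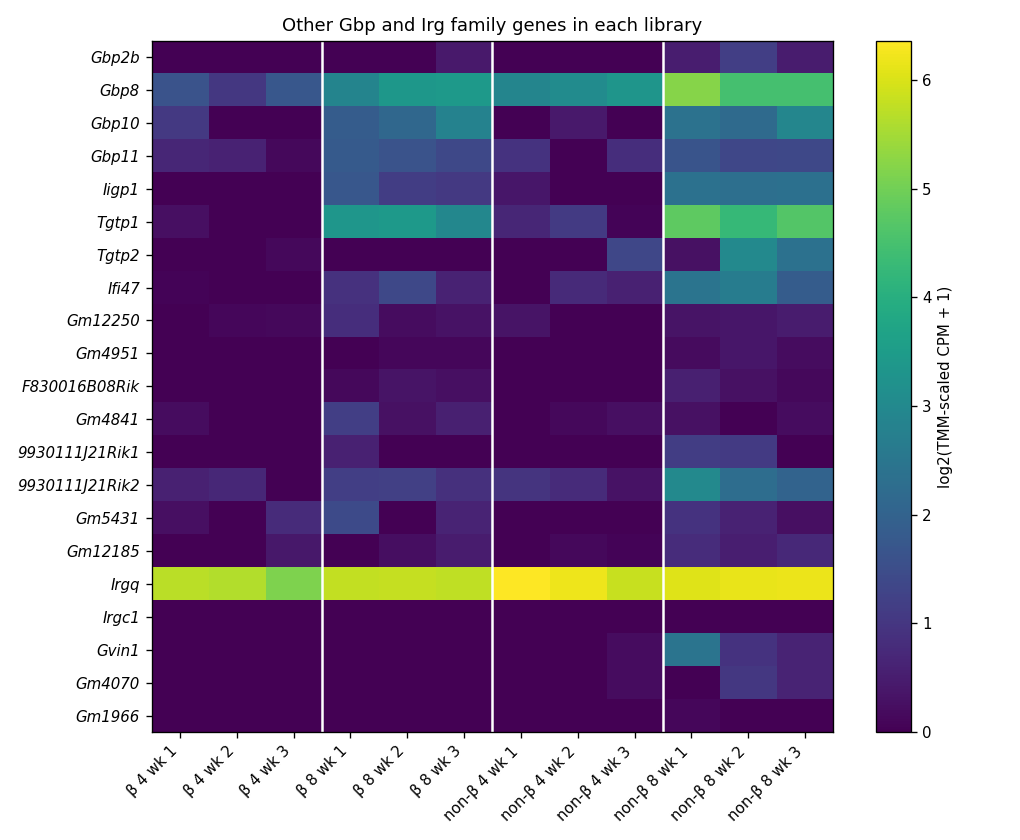
Colours give log2(TMM-scaled CPM + 1) of the 21 other family genes in the 12 libraries, with white lines between the groups. Irgq is bright in every library, Tgtp1, Iigp1 and Gbp10 are near 0 at 4 weeks and visible in all 8-week libraries, and many of the remaining rows stay near 0.

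Interferon-γ signals through Ifngr1 and Ifngr2, the kinases Jak1 and Jak2 and transcription factors such as Irf1, which in turn drive GBP and IRG genes. Of 18 genes listed for this axis, 14 were tested, of which 5 rose with age in β-cells and 11 in the non-β fraction, against 8.59% and 11.6% of all tested genes, and none fell in either. Both counts include genes that passed the filter only through the 8-week libraries, so that a rise was built into their selection. Ifng itself had no count in any of the 12 libraries, which allows up to 0.111 to 0.218 CPM, depending on the library. Irf1 had 39.6 to 40.6 CPM in 4-week and 69.4 to 75.4 CPM in 8-week β-cells (log2 difference 0.85 ± 0.11, limma-voom, adjusted p = 0.000169). Non-β-cells went from between 64.8 and 82.4 CPM to between 424 and 460 CPM (2.57 ± 0.10, adjusted p = 2.41e-08), and this difference between fractions was called (interaction −1.73 ± 0.15, adjusted p = 2.99e-05).

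Cxcl10, a chemokine that attracts T cells, went from 4.42 ± 0.63 to 6.97 ± 1.74 CPM in β-cells, which was not called (limma-voom, adjusted p = 0.102), and from 5.90 ± 0.62 to 68.0 ± 7.75 CPM in the non-β fraction (3.52 ± 0.19, adjusted p = 1.97e-07). Nlrc5, the activator of MHC class I genes, had a log2 difference of 1.86 ± 0.32 in β-cells (limma-voom, adjusted p = 0.00177) and of 0.85 ± 0.22 in the non-β fraction (adjusted p = 0.0165, and up to 0.0703 on leaving out 1 library). 

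GBPs such as Gbp2 and Gbp5 are anchored to membranes by prenylation. Of 6 prenylation genes none rose, and 2 fell in β-cells, where 9.35% of tested genes fell with age. Fnta, the shared α-subunit of the prenyl transferases, had 90.1 ± 10.6 and 56.2 ± 2.41 CPM in 4- and 8-week β-cells (log2 difference −0.68 ± 0.11, limma-voom, adjusted p = 0.00118), and Rce1, a protease that trims prenylated proteins, had 62.6 ± 13.6 and 32.0 ± 2.18 CPM (−0.94 ± 0.16, adjusted p = 0.00128). None of the 6 was called with age in the non-β fraction.

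IRGs and GBPs are guided to their targets by the machinery that attaches Atg8 proteins to membranes. Of 12 genes listed for this machinery and for proteins that act with it, 2 fell in β-cells, where 9.35% of tested genes fell. None was called in the non-β fraction, where 748 of 15598 tested genes fell and 11.6% rose. Map1lc3b, which encodes LC3B, had 190 ± 22.0 and 117 ± 6.51 CPM in β-cells (−0.69 ± 0.11, limma-voom, adjusted p = 0.000731) and 139 ± 13.6 and 139 ± 1.82 CPM in the non-β fraction. Map1lc3a fell by 0.59 ± 0.18 on the log2 scale in β-cells (adjusted p = 0.0357, and up to 0.114 on leaving out 1 library). Atg3, which couples LC3 to lipid, had log2 differences of −0.40 in both fractions (adjusted p = 0.0840 and 0.112).

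Inflammasome genes lie downstream of GBPs. Of 10 listed, 7 were tested, of which 2 rose in β-cells and 4 in the non-β fraction, against 8.59% and 11.6% of all tested genes, and none fell. Zbp1 and Casp4 passed the filter only through the 8-week libraries. Zbp1, a sensor of Z-form nucleic acids, went from 0.0744 ± 0.0965 to 2.90 ± 0.45 CPM in β-cells (5.38 ± 1.12, limma-voom, adjusted p = 0.00557) and from 0.431 ± 0.274 to 8.70 ± 1.68 CPM in the non-β fraction (4.69 ± 0.64, adjusted p = 0.000220). Gsdmd, which encodes the pore-forming gasdermin D, went from 7.14 ± 1.32 to 13.6 ± 1.95 CPM in β-cells (0.94 ± 0.21, adjusted p = 0.00753) and from 1.78 ± 0.83 to 7.64 ± 1.32 CPM in the non-β fraction (2.15 ± 0.38, adjusted p = 0.00150). Casp4, which encodes mouse caspase-11, was called in the non-β fraction (4.93 ± 1.12, adjusted p = 0.00796) and had 0.741 ± 0.508 and 2.14 ± 0.91 CPM in β-cells (adjusted p = 0.0979). Casp8 was called in the non-β fraction (0.73 ± 0.23, adjusted p = 0.0470), though not when a library was left out (adjusted p of up to 0.180). Aim2, a DNA sensor, was below the filter and did not exceed 0.693 CPM in any library.

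Outside these lists, the 5 tested genes whose log2 CPM over the 12 samples correlated best with the mean standardised log2 CPM of the 10 genes were Jak3 (Pearson's r = 0.985), Plekha2 (0.978), Dhx58 (0.976), Pfkfb3 (0.975) and Rinl (0.973). These correlations describe 12 samples in 4 groups, so they mostly reflect group means, and they carry no test. Jak3, a kinase of cytokine receptors, had 23.5 ± 3.23 and 65.5 ± 3.30 CPM in 4- and 8-week β-cells and 31.8 ± 6.91 and 81.5 ± 10.6 CPM in the non-β fraction. Dhx58, which encodes the RNA sensor LGP2, had 1.56 ± 0.07 and 5.46 ± 0.53 CPM in β-cells and 2.52 ± 0.56 and 8.74 ± 2.72 CPM in the non-β fraction. Among the 10 genes, Gbp4 (0.966) and Gbp2 (0.965) were closest to their common mean and Irgm1 (0.848) was farthest from it. Each of the 10 is itself part of that mean, which raises its value, so these do not compare with those of the 5 outside genes.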

How the data were processed

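As the methods describe, single-end stranded reads of 100 bases were cleaned with fastp, quantified by the authors against Ensembl 98 mouse transcripts in kallisto, and brought to gene level by tximport. The deposited values are estimated counts per gene, unscaled and unfiltered, on build GRCm38. From 14.0% to 19.3% of a library's values were not whole. Tool versions are not given in the sources used here. Totals of 13755106 to 27040652 per library leave genes at a few counts imprecise.

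Estimated counts were rounded, filtered (CPM above 1 in at least 3 of 12 samples), TMM-scaled with edgeR 4.0.16 and modelled as 4 group means by limma-voom, the test of the study (limma version 3.58.1 under R 4.3.3). All tests were two-sided, with Benjamini-Hochberg adjustment over 15598 genes and a threshold of 0.05. The fit was tested on simulated data. Symbols, positions and transcripts came from GENCODE M21 (GRCm38), which gave a symbol for 51916 of 52962 identifiers, and promoters from RefSeq. Alternatives used edgeR's quasi-likelihood test, DESeq2 1.42.0, other scalings and filters, quality weights, a replicate block, summed copies and omission of libraries.

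The text names the 10 genes, the counted family genes, for each pathway list its first gene and up to 4 with the smallest adjusted p, and the 5 genes nearest in pattern. Members and lists were chosen with earlier results of these data known. One gene of the interferon-γ list is not reported here by name.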

Additional observations from a re-analysis of the deposited data

Results flagged for a closer look

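The gap of a single library to its group was not tested, since that was done only for groups of 4 or more. The age change of 6 genes of the pathway lists differed between fractions by the interaction term of limma-voom. These lists held 14 (interferon-γ), 6 (prenylation), 12 (Atg8) and 7 (inflammasome) tested genes. The interaction was −2.90 ± 0.31 on the log2 scale for Cxcl10 (adjusted p = 0.000178), −1.73 ± 0.15 for Irf1 (adjusted p = 2.99e-05), −0.80 ± 0.16 for Ifngr1 (adjusted p = 0.0123), −0.73 ± 0.15 for Ifngr2 (adjusted p = 0.0149), −0.70 ± 0.15 for Map1lc3b (adjusted p = 0.0170) and −0.68 ± 0.18 for Cd274 (adjusted p = 0.0479). All 6 changed more positively in non-β-cells. Of 15598 tested genes 520 (3.33%) were called in that direction and 280 in the other. Those of Map1lc3b and Cd274 were lost when a library was left out, with adjusted p of up to 0.0561 and 0.116.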

How the results depend on the processing

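The age counts of 10 of 10 genes stayed at 8 to 10 in both fractions, and no age change reversed in any of 23 alternatives. Of 230 alternative values in each fraction, 12 in β-cells (Gbp7 and Gbp9) and 19 in non-β-cells (Gbp7 and Irgm1) lost the call. At 4 weeks the count of 1 gene differing between fractions became 4 with edgeR, DESeq2 or quality weights, 3 with the replicate block or with overlapping genes summed (a sum of Gbp4, Gbp8 and Gbp9 that counts for both Gbp4 and Gbp9), and 2 with no filter, a stricter filter, near-identical copies summed or both 4-week samples numbered 3 left out. Quality weights called 8956 of all tested genes at 4 weeks, against 7570 in the main fit. Leaving out 1 library gave a count of 1 to 2. It became 2 without non-β 4-week library 1 (Gbp6), 2 (Gbp5) or 3 (Gbp7), or non-β 8-week library 1 (Gbp9). At 8 weeks the count of 5 became 3 with edgeR and DESeq2, and 4 to 6 on leaving out 1 library. The interaction count of 0 became 1 with DESeq2 (Gbp5), and 0 to 1 on leaving out 1 library (Gbp6 without non-β 4-week library 1).

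Signs turned in values that were not called. At 4 weeks the Gbp2 difference between fractions became 0.43 with quality weights, 0.05 without both samples numbered 3, 0.11 without non-β library 2 and 0.00 without non-β library 3 (−1.07 to 0.11 over libraries left out), and that of Gbp6 became −0.10 with overlapping genes summed. At 8 weeks Igtp became −0.24 with overlapping genes summed and Gbp5 0.017 without β library 1 (−0.266 to 0.017 over libraries left out). The interaction became 0.46 for Gbp2 without non-β 4-week library 1 (−0.74 to 0.46 over libraries left out) and 0.00 with the replicate block, 0.31 for Gbp4 with near-identical copies summed, 0.068 for Gbp4 and Gbp9 and −0.007 for Igtp with overlapping genes summed, and −0.72 for Gbp3 without β 4-week library 2 (−0.72 to 1.83). The cause was not tested. The sums of overlapping genes were chosen after the data were seen.

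The labels do not say that equal replicate numbers mark a shared preparation. Over all 15598 tested genes, deviations from the group means correlated between samples of equal number in the β and non-β groups at 0.08, 0.13 and 0.31 at 4 weeks and at 0.02, 0.05 and 0.01 at 8 weeks, so not every pair passed 0.1 and the numbers were not taken as pairing. With genes limited to a mean log2 CPM above 3, the 4-week values were 0.29, 0.43 and 0.67, and at limits of 5 and 7 they were 0.47, 0.62 and 0.81 and 0.60, 0.76 and 0.88, so every 4-week pair passed 0.1 at these limits, which were tried after the data were seen. Whether the 4-week numbers pair the samples is therefore uncertain. A block joining β and non-β samples of equal number at each age moved the 4-week count from 1 to 3 and the 8-week count from 5 to 7. For the age changes the block instead joined 4- and 8-week samples of equal number within a fraction, which the labels do not pair either. That block moved the non-β age count from 10 to 9 (Irgm1, limma-voom, adjusted p = 0.0530). Deviations of the samples it joined correlated over all tested genes at 0.1, 0 and 0.12 in the non-β fraction. In β-cells the values were 0.03, 0.02 and −0.01.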
